A study of Saccharomyces cerevisiae with 24 samples.

Results

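The genes described here are those that carry glucose to ethanol in Saccharomyces cerevisiae, 31 genes out of 6256 measured on the array. They were chosen by name, as the enzymes of glycolysis and alcoholic fermentation with their isoenzymes, the enzymes that make and break the phosphofructokinase activator fructose 2,6-bisphosphate, and PDC2, a transcription factor of the pyruvate decarboxylase genes. The samples were 24 one-colour expression arrays of 3 haploid W303 strains in 2 media, with 4 biological repeats in each of the 6 groups. In SEF1-VP16, a single clone, the chromosomal SEF1 gene ends in the activation domain of viral protein VP16. In sef1 the gene is replaced by the NatMX4 marker, and WT is the unaltered parent. All 3 strains are of mating type a and share mutant alleles of HIS3, TRP1, URA3, ADE2, LEU2 and CAN1. From overnight YPD cultures, cells at 0.2 OD600 per ml were kept for 5.5 h at 30 °C in YPGly, a rich glycerol medium, or in YPD, its glucose counterpart.

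Yeast splits each glucose molecule by glycolysis and, when sugar is plentiful, turns pyruvate into ethanol through pyruvate decarboxylase and alcohol dehydrogenase, even in air. Many steps are catalysed by isoenzymes, near copies of one enzyme whose genes respond differently to sugar. On glycerol the carbon enters at the triose phosphates, so the upper steps must run backwards towards glucose phosphates while the lower steps still lead to pyruvate. The textbook pair is ADH1, which makes ethanol and is transcribed during fermentation, and ADH2, which consumes ethanol and is repressed by glucose. Sef1 is a zinc cluster transcription factor, and the study compared its loss and its VP16 fusion with the parent strain.

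All levels are log2 spot intensities relative to the 75th percentile of the same array, all differences are log2 fold changes with the standard error from limma (4 arrays in each group, unless stated), and each gene was read by 1 probe with 2 spots. Called here means an adjusted p below 0.05 together with a difference of at least 1.5-fold. All 31 genes were above background on all 24 arrays and none was saturated, and all entered the tests, which covered 5644 probes. The 75th percentile itself varied 3.04-fold, with 5320 units on the dimmest array and 16182 on the brightest. SEF1 was above background on 0 of 8 arrays of sef1 and on all 16 others, as the deletion labels have it. The 5 mating type a genes checked were above background on all arrays, as were STE3 and SAG1 of the 4 alpha genes. On WT in YPD replicate 1 both spots of HXK1, PGI1, FBA1, GPM1, ENO2 and ADH1 were marked as outliers by the scanner software and left out, so WT in YPD rests on 3 arrays for these genes. The arrays came on 3 slides, of which one carried SEF1-VP16 and sef1 in YPGly, another WT in YPGly beside SEF1-VP16 in YPD, and another the YPD arrays of sef1 and WT. Every comparison of the media thus crossed slides, and only SEF1-VP16 against sef1 in YPGly and sef1 against WT in YPD lay within one.

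One feature of the arrays moved with the main enzymes of the pathway, taken as a set. For 12 enzymes, 1 for each step (HXK2, PGI1, PFK1, FBA1, TPI1, TDH3, PGK1, GPM1, ENO2, CDC19, PDC1 and ADH1), the median deviation from the group mean ran from −0.66 to 0.45 over the 24 arrays. In 6 of 6 groups the array with the highest 75th percentile had the lowest value, and in 6 of 6 groups the array with the lowest percentile had the highest. The percentile is itself subtracted in each level, so these counts are not independent of the scaling. On sef1 in YPGly replicate 2, with a percentile of 14627, the enzymes lay 0.66 below their group mean, and on SEF1-VP16 in YPGly replicate 1, with a percentile of 5320, they lay 0.38 above it. After quantile normalization, which gives every array the same distribution of values, the range narrowed to −0.05 to 0.19, the upper end being WT in YPD replicate 1. On that array PGI1, FBA1, GPM1, ENO2 and ADH1 were left out, so its value rests on the remaining step enzymes. The mean SD within groups was 0.28 for the 12 enzymes, against 0.16 for the 19 other genes, and 0.10 against 0.12 after quantile normalization. The part of this deviation in the differences reported below was not tested beyond the values given with quantile normalization.

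**Figure D1:**
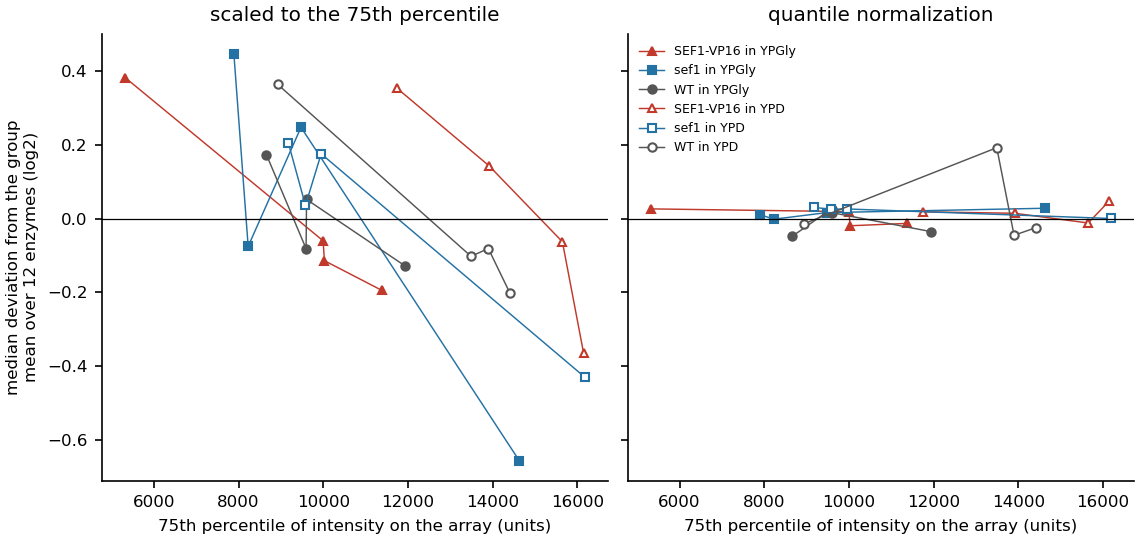
Median deviation of 12 glycolytic enzymes from their group mean (y axis, log2) against the 75th percentile of intensity of the array (x axis, intensity units), with lines joining the 4 arrays of a group. With the 75th percentile as scale (left) the brightest array of each of the 6 groups lies lowest, and after quantile normalization (right) the values lie between −0.05 and 0.19.

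The genes called between the media were mostly isoenzymes other than the main form of each step. Within groups the 12 step enzymes had a mean SD of 0.28, against 0.16 for the 19 other genes. How far this limited calls of the main forms was not tested. Of the 12 step enzymes above, HXK2 alone was called in any strain. Under other settings ENO2 also was, in SEF1-VP16 with quantile normalization and in sef1 with normexp background correction or the array median as scale. In YPGly against YPD, 4 of 31 genes were called higher in all 3 strains (PFK26, GPM2, PDC6 and ADH2) and 6 were called lower in all 3 (HXK2, PFK27, GPM3, PYK2, PDC5 and ADH5). HXK1, GLK1 and PDC2 were called in 1 or 2 strains, and 18 genes in none. In SEF1-VP16 5 were called higher and 6 lower, where 19.6% of all probes tested were called higher and 21.8% lower. In sef1 it was 5 higher and 7 lower, beside 19.4% and 19.5% of all probes, and in WT again 5 higher and 7 lower, beside 21.1% and 18.1%. The share of genes called thus lay near that of the whole array in each strain. The number of genes whose YPGly arrays all lay above, or all below, the YPD arrays was 7 and 10 in SEF1-VP16, 5 and 9 in sef1, and 5 and 12 in WT. Of all probes tested, 35.1% lay above and 39.8% below in this way in SEF1-VP16, 36.6% and 38% in sef1, and 34.2% and 32.2% in WT, and with both directions together the 31 genes separated no more often than all probes in any strain. The median over the 31 genes was 0.18 in SEF1-VP16, −0.22 in sef1 and −0.08 in WT, against −0.05, −0.02 and 0.01 over all probes tested. In SEF1-VP16 the sign of that median turned with quantile normalization (−0.26).

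**Figure D2:**
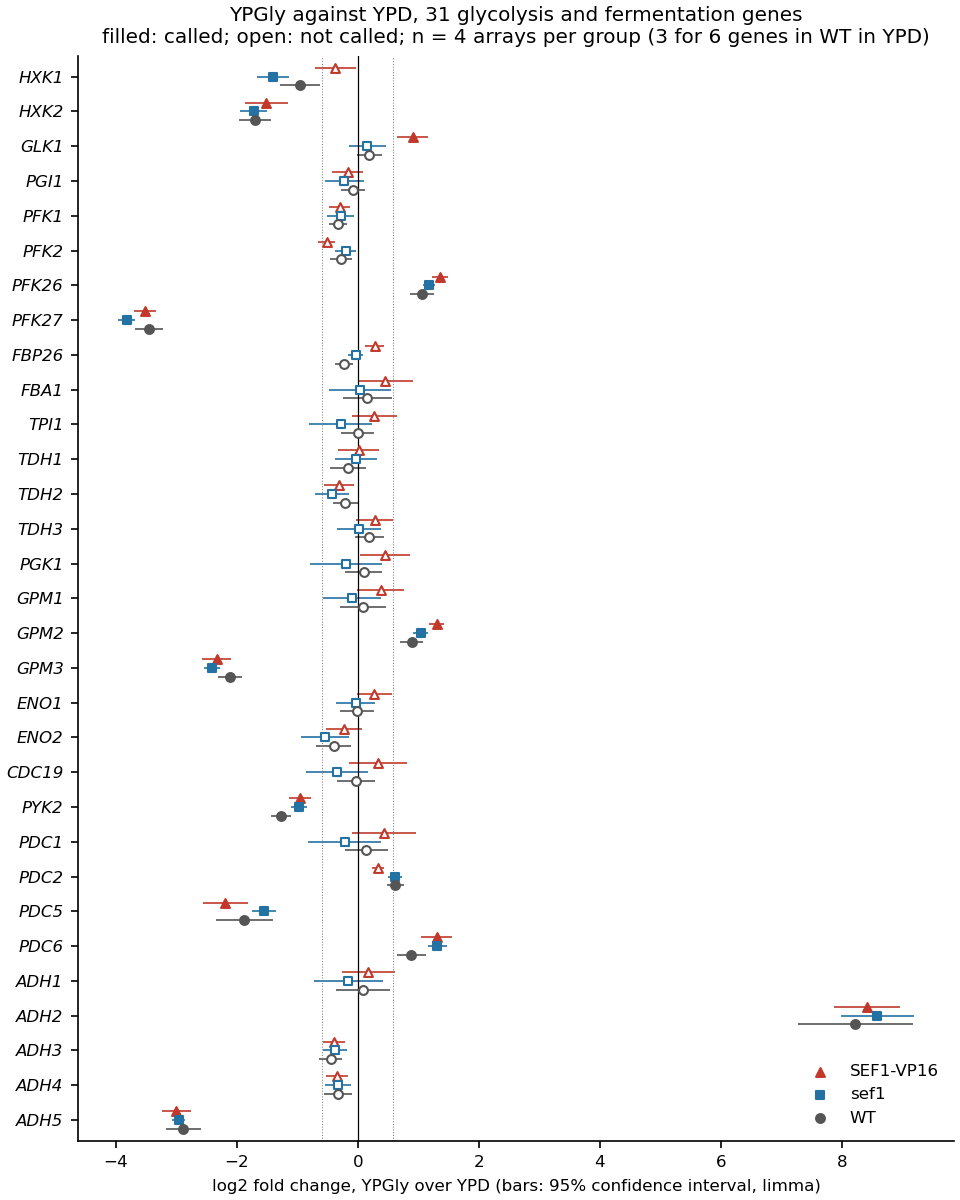
Log2 fold change of YPGly over YPD (x axis) for the 31 genes in pathway order (y axis) in SEF1-VP16 (triangles), sef1 (squares) and WT (circles), with 95% confidence intervals from limma and dotted lines at 1.5-fold. ADH2 lies above 8 in all 3 strains, PFK27, ADH5 and GPM3 lie below −2, and most enzymes of the main pathway lie within the dotted lines.

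Glucose is phosphorylated by the hexokinases HXK1 and HXK2 and the glucokinase GLK1. HXK2, the main hexokinase of cells growing on glucose and also a part of glucose repression, fell in YPGly. Its level on the 4 arrays of each strain in YPGly was 2.12, 2.93, 2.89 and 2.72 in SEF1-VP16, 2.35, 2.27, 2.63 and 2.67 in sef1 and 2.27, 2.56, 2.12 and 2.74 in WT. In YPD it was 4.0, 4.15, 4.30 and 4.24 in SEF1-VP16, 4.26, 4.30, 4.25 and 3.99 in sef1 and 4.11, 4.11, 4.16 and 4.10 in WT, and the media did not overlap in any strain. The difference was −1.51 ± 0.16 in SEF1-VP16, −1.72 ± 0.10 in sef1 and −1.70 ± 0.12 in WT (adjusted p = 8.12e-06, 4.21e-08 and 5.94e-07). GLK1, which phosphorylates glucose but not fructose and is known to be repressed by glucose, was called in SEF1-VP16 alone. In YPGly the GLK1 arrays read 4.30, 3.85, 3.91 and 3.90 in SEF1-VP16, 3.68, 3.41, 4.05 and 4.10 in sef1 and 3.90, 4.04, 4.08 and 3.75 in WT. In YPD they read 2.85, 3.08, 3.29 and 3.10 in SEF1-VP16, 3.70, 3.69, 3.75 and 3.47 in sef1 and 3.66, 3.64, 3.88 and 3.83 in WT, with every SEF1-VP16 array below every array of the other strains. GLK1 therefore rose with glycerol in SEF1-VP16 by 0.91 ± 0.12 (adjusted p = 3.47e-05), where the difference was 0.16 ± 0.14 in sef1 and 0.19 ± 0.09 in WT, neither past the test. HXK1, a second hexokinase that is also known to be repressed by glucose, was nonetheless lower in YPGly in sef1 and WT. Its arrays read 4.38, 3.93, 3.97 and 4.0 in SEF1-VP16, 3.42, 3.42, 3.64 and 3.67 in sef1 and 4.12, 4.09, 4.02 and 3.69 in WT in YPGly. In YPD they read 4.04, 4.42, 4.79 and 4.52 in SEF1-VP16, 5.07, 5.10, 5.01 and 4.55 in sef1 and 4.74, 5.24 and 4.80 in WT, 3 arrays for WT, with overlap between the media in SEF1-VP16 and none in sef1 or WT. HXK1 was called lower in sef1 (−1.40 ± 0.12, adjusted p = 9.14e-07) and in WT (−0.95 ± 0.15, adjusted p = 2.56e-04). In SEF1-VP16 its difference was −0.37 ± 0.15, short of the 1.5-fold limit, and −0.71 with quantile normalization, past it. With the slide added to strain and medium in 1 fit of all arrays, limma gave HXK1 a medium difference of 0.07 (adjusted p = 0.822) and GLK1 one of 0.94. That fit assumes a single medium difference for all strains, and for HXK1 and GLK1 the effects of medium and slide cannot be told apart.

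The next steps held the largest contrast between partners of the upper pathway. PGI1, the phosphoglucose isomerase, differed by −0.22 to −0.08 over the strains and passed no test. PGI1 lay between 3.78 and 4.51 on the 12 YPGly arrays and between 3.88 and 4.59 on the 11 YPD arrays. PFK1 and PFK2 are the subunits of phosphofructokinase. PFK1 lay between 3.09 and 3.50 on the 12 YPGly arrays and between 3.22 and 3.68 on the 12 YPD arrays. Its difference was −0.30 ± 0.08 in SEF1-VP16, −0.28 ± 0.10 in sef1 and −0.32 ± 0.07 in WT, short of 1.5-fold. PFK2 lay between 2.25 and 2.74 on the 12 YPGly arrays and between 2.65 and 2.93 on the 12 YPD arrays. Its difference was −0.51 ± 0.06 in SEF1-VP16, −0.20 ± 0.08 in sef1 and −0.28 ± 0.08 in WT, also below the 1.5-fold limit. In SEF1-VP16 PFK2 passed that limit with quantile normalization (−0.69). With the slide as a term, its single medium difference for all strains was −0.59 and was called (adjusted p = 3.02e-04, limma). The kinases PFK26 and PFK27 make fructose 2,6-bisphosphate, which turns phosphofructokinase on, and the phosphatase FBP26 removes it. PFK26 rose in YPGly. It stood at 0.41, 0.32, 0.36 and 0.48 in SEF1-VP16, 0.37, 0.37, 0.36 and 0.37 in sef1 and 0.47, 0.23, 0.51 and 0.21 in WT in YPGly. In YPD it stood at −0.94, −0.87, −1.04 and −1.03 in SEF1-VP16, −0.74, −0.83, −0.83 and −0.83 in sef1 and −0.61, −0.78, −0.70 and −0.76 in WT, a difference of 1.36 ± 0.06 in SEF1-VP16, 1.18 ± 0.05 in sef1 and 1.07 ± 0.09 in WT (adjusted p = 9.15e-09, 1.33e-09 and 1.84e-06). PFK27, known to be induced by fermentable sugar, moved the other way and fell. The PFK27 probe read −6.08, −6.32, −6.31 and −6.26 in SEF1-VP16, −6.71, −6.57, −6.82 and −6.74 in sef1 and −6.08, −6.31, −6.36 and −6.33 in WT in YPGly. It read −2.53, −2.75, −2.81 and −2.80 in SEF1-VP16, −2.96, −2.92, −2.90 and −2.78 in sef1 and −2.90, −2.77, −3.03 and −2.57 in WT in YPD, with no overlap in any strain. That is 11.5-fold lower in YPGly in SEF1-VP16, 14.1-fold in sef1 and 10.9-fold in WT (log2 −3.52, −3.82 and −3.45, adjusted p = 5.11e-11, 2.87e-12 and 9.39e-10). With normexp background correction the log2 differences of this dim probe were smaller, −2.67 in SEF1-VP16, −2.96 in sef1 and −2.74 in WT. FBP26 was called in no strain. Its arrays gave 0.96, 0.79, 0.69 and 0.92 in SEF1-VP16, 0.76, 0.83, 0.72 and 0.74 in sef1 and 0.85, 0.76, 0.87 and 0.69 in WT in YPGly. In YPD they gave 0.59, 0.64, 0.53 and 0.49 in SEF1-VP16, 0.87, 0.71, 0.80 and 0.83 in sef1 and 1.07, 0.99, 0.99 and 1.01 in WT, and the difference of 0.28 ± 0.07 in SEF1-VP16, −0.04 ± 0.05 in sef1 and −0.22 ± 0.07 in WT had opposite signs in SEF1-VP16 and WT. In SEF1-VP16 all 4 YPGly arrays lay above the YPD arrays, and in WT all 4 lay below them.

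From the aldolase to the enolases the main enzymes stayed within the 1.5-fold limit in all 3 strains. Before scaling, the FBA1 probe ran from 281571 to 486789 units over the arrays and the GPM1 probe from 287829 to 453545. The 75th percentile of the arrays varied 3.04-fold. How far such bright probes can show a change in transcript level was not tested. FBA1, the only aldolase, averaged 5.39 ± 0.34 in YPGly against 4.93 ± 0.39 in YPD in SEF1-VP16 (SD, n = 4 each), and its differences ran from 0.04 to 0.46 over the strains. TPI1 is the triose phosphate isomerase. TPI1 lay between 4.19 and 5.49 on the 12 YPGly arrays and between 4.49 and 5.40 on the 12 YPD arrays. Its differences were 0.27 ± 0.17 in SEF1-VP16, −0.28 ± 0.24 in sef1 and 0.00 ± 0.12 in WT. TDH1, TDH2 and TDH3 encode glyceraldehyde 3-phosphate dehydrogenase, TDH3 being the main form. The TDH1 differences were 0.02 ± 0.15 in SEF1-VP16, −0.04 ± 0.16 in sef1 and −0.16 ± 0.13 in WT. The TDH2 differences were −0.31 ± 0.11 in SEF1-VP16, −0.43 ± 0.12 in sef1 and −0.21 ± 0.09 in WT. The TDH3 differences were 0.28 ± 0.13 in SEF1-VP16, 0.02 ± 0.16 in sef1 and 0.19 ± 0.11 in WT. TDH2 was negative and TDH3 positive in all 3 strains, and only TDH2 passed the adjusted p, in SEF1-VP16 and sef1, short of 1.5-fold. PGK1 is the phosphoglycerate kinase. PGK1 lay between 3.83 and 5.49 on the 12 YPGly arrays and between 4.14 and 5.09 on the 12 YPD arrays. Its differences were 0.46 ± 0.18 in SEF1-VP16, −0.20 ± 0.27 in sef1 and 0.10 ± 0.14 in WT. ENO1 is an enolase known to be repressed by glucose, and ENO2 one known to be induced by it. The ENO1 differences were 0.28 ± 0.13 in SEF1-VP16, −0.04 ± 0.14 in sef1 and −0.01 ± 0.13 in WT, and those of ENO2 −0.23 ± 0.14 in SEF1-VP16, −0.54 ± 0.18 in sef1 and −0.40 ± 0.13 in WT. ENO2 passed the adjusted p in sef1 (−0.54 ± 0.18, adjusted p = 0.0178) and in WT (−0.40 ± 0.13, adjusted p = 0.0186). In sef1 it also passed the fold limit without YPD replicate 4 (−0.66) or without YPGly replicate 3 or 4 (−0.62 and −0.64), and in SEF1-VP16 it did so with quantile normalization (−0.65). In sef1 ENO2 was called as well with normexp background correction (−0.64) and with the array median as scale (−0.61).

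The phosphoglycerate mutase family was the exception in this stretch. GPM1 is the active mutase, while GPM2 and GPM3 are homologues with little or no known activity. The GPM1 probe gave 5.76, 5.12, 4.99 and 5.21 in SEF1-VP16, 5.13, 4.47, 5.30 and 5.54 in sef1 and 5.08, 5.37, 5.32 and 4.94 in WT in YPGly. In YPD it gave 4.60, 4.72, 5.23 and 5.03 in SEF1-VP16, 5.29, 5.40, 5.39 and 4.73 in sef1 and 4.92, 5.50 and 4.85 in WT, 3 arrays for WT, and the ranges overlapped in every strain. GPM2 rose in YPGly by 1.30 ± 0.05 in SEF1-VP16, 1.04 ± 0.06 in sef1 and 0.89 ± 0.08 in WT (adjusted p = 5.75e-09, 2.00e-08 and 4.22e-06), and all 12 YPGly arrays lay above all 12 YPD arrays. GPM2 lay between 0.69 and 1.05 on the 12 YPGly arrays and between −0.61 and 0.09 on the 12 YPD arrays. GPM3 fell, opposite to GPM2. Its levels in YPGly were −4.24, −3.83, −3.69 and −4.07 in SEF1-VP16, −4.28, −4.10, −4.17 and −4.20 in sef1 and −4.14, −3.87, −4.23 and −4.03 in WT. In YPD they were −1.54, −1.61, −1.71 and −1.63 in SEF1-VP16, −1.67, −1.84, −1.82 and −1.75 in sef1 and −1.92, −1.89, −2.07 and −1.94 in WT, and every YPGly array lay below every YPD array. The difference was −2.33 ± 0.11 in SEF1-VP16, −2.41 ± 0.06 in sef1 and −2.11 ± 0.09 in WT (adjusted p = 1.30e-08, 3.59e-11 and 8.98e-09).

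Pyruvate kinase is CDC19 during growth on glucose, and PYK2 is a second form known to be repressed by glucose. On the CDC19 probe the arrays read 5.24, 4.77, 4.67 and 4.78 in SEF1-VP16, 4.61, 3.91, 4.87 and 5.08 in sef1 and 4.65, 4.97, 4.86 and 4.67 in WT in YPGly. They read 3.88, 4.52, 5.01 and 4.69 in SEF1-VP16, 5.05, 5.16, 5.12 and 4.49 in sef1 and 4.84, 4.71, 5.22 and 4.50 in WT in YPD, where SEF1-VP16 replicate 1 was the lowest of all YPD arrays. The differences of 0.34 ± 0.21 in SEF1-VP16, −0.34 ± 0.23 in sef1 and −0.03 ± 0.14 in WT did not pass the test. PYK2 was called lower in YPGly in every strain. The PYK2 arrays gave −0.88, −0.87, −0.75 and −0.83 in SEF1-VP16, −0.60, −0.51, −0.64 and −0.77 in sef1 and −0.65, −0.73, −0.86 and −0.78 in WT in YPGly. They gave 0.35, 0.08, 0.06 and 0.00 in SEF1-VP16, 0.38, 0.36, 0.30 and 0.32 in sef1 and 0.57, 0.56, 0.49 and 0.43 in WT in YPD, with no overlap, and the difference was −0.96 ± 0.08 in SEF1-VP16, −0.97 ± 0.06 in sef1 and −1.27 ± 0.07 in WT (adjusted p = 1.06e-06, 7.19e-08 and 9.81e-08).

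Pyruvate decarboxylase sends pyruvate to acetaldehyde, with PDC1 as the main gene, PDC5 as a second form that glucose-grown cells also use, and PDC6 as a minor form. PDC1 read 5.49, 4.65, 4.56 and 4.76 in SEF1-VP16, 4.50, 3.69, 4.92 and 5.09 in sef1 and 4.68, 5.02, 4.84 and 4.57 in WT in YPGly. In YPD the PDC1 arrays read 3.84, 4.44, 4.86 and 4.58 in SEF1-VP16, 4.78, 5.0, 5.02 and 4.27 in sef1 and 4.57, 4.48, 5.13 and 4.37 in WT, so that within a strain the 2 media overlapped and the difference (0.43 ± 0.24 in SEF1-VP16, −0.22 ± 0.27 in sef1 and 0.14 ± 0.16 in WT) did not pass the test. PDC5 fell. In YPGly it lay at −1.61, −2.41, −2.39 and −2.37 in SEF1-VP16, −1.84, −1.84, −1.98 and −1.86 in sef1 and −1.07, −1.95, −1.84 and −2.28 in WT, with replicate 1 highest in SEF1-VP16 and in WT. In YPD it lay at 0.14, −0.14, 0.07 and −0.09 in SEF1-VP16, −0.07, −0.34, −0.53 and −0.40 in sef1 and 0.13, −0.05, 0.08 and 0.19 in WT. The difference was −2.19 ± 0.16 in SEF1-VP16, −1.55 ± 0.09 in sef1 and −1.87 ± 0.21 in WT (adjusted p = 5.48e-07, 3.48e-08 and 1.67e-05), a 3.67-fold lower level in WT. With the slide as a term, the single medium difference of PDC5 was −2.52. PDC6 rose by 1.30 ± 0.11 in SEF1-VP16, 1.32 ± 0.07 in sef1 and 0.89 ± 0.11 in WT (adjusted p = 1.66e-06, 1.65e-08 and 3.19e-05), and every YPGly array lay above every YPD array of its strain. PDC6 lay between −3.75 and −2.93 on the 12 YPGly arrays and between −4.72 and −4.28 on the 12 YPD arrays. PDC2, the regulator, was called higher in sef1 (0.61 ± 0.05) and WT (0.62 ± 0.06), just past the 1.5-fold limit of 0.585 on the log2 scale. It lost both calls with the array median as scale, with normexp background correction, with quantile normalization and with the slide as a term (0.34), and in SEF1-VP16 the difference was 0.33 ± 0.05.

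The alcohol dehydrogenases held the widest range of all. ADH1, the main ethanol-forming enzyme, was at 5.48, 4.92, 4.72 and 4.90 in SEF1-VP16, 4.93, 4.20, 5.31 and 5.55 in sef1 and 5.04, 5.47, 5.05 and 4.90 in WT in YPGly. In YPD it was at 4.37, 4.74, 5.28 and 4.93 in SEF1-VP16, 5.24, 5.38, 5.31 and 4.67 in sef1 and 4.91, 5.51 and 4.67 in WT, 3 arrays for WT, and the differences of 0.18 ± 0.20 in SEF1-VP16, −0.16 ± 0.26 in sef1 and 0.09 ± 0.20 in WT did not pass the test. ADH2, the ethanol-consuming form, rose in YPGly more than any other of the 31 genes. Its YPGly arrays read 5.26, 4.52, 4.39 and 4.65 in SEF1-VP16, 4.23, 3.41, 4.56 and 5.06 in sef1 and 4.33, 4.81, 4.59 and 4.53 in WT. Its YPD arrays read −3.18, −4.09, −3.41 and −4.15 in SEF1-VP16, −4.14, −4.39, −4.46 and −4.11 in sef1 and −4.59, −4.58, −2.93 and −2.53 in WT. The 4 WT arrays in YPD fell into a low pair and a high pair, and even the highest of all YPD arrays, at −2.53, lay far below the lowest YPGly array, at 3.41. In folds, ADH2 was 340-fold higher in SEF1-VP16, 385-fold in sef1 and 298-fold in WT (log2 8.41 ± 0.24 in SEF1-VP16, 8.59 ± 0.27 in sef1 and 8.22 ± 0.43 in WT, adjusted p = 3.42e-10, 3.05e-10 and 5.09e-08). ADH3 is the mitochondrial form. ADH3 lay between 2.57 and 3.04 on the 12 YPGly arrays and between 2.94 and 3.32 on the 12 YPD arrays. Its difference was −0.39 ± 0.08 in SEF1-VP16, −0.38 ± 0.09 in sef1 and −0.45 ± 0.08 in WT, past the adjusted p in each strain but short of 1.5-fold. ADH4 belongs to another enzyme family. ADH4 lay between −4.41 and −3.89 on the 12 YPGly arrays and between −4.07 and −3.60 on the 12 YPD arrays. Its difference was −0.34 ± 0.08 in SEF1-VP16, −0.32 ± 0.10 in sef1 and −0.33 ± 0.11 in WT, likewise past the adjusted p and short of 1.5-fold. ADH5, a cytosolic form of lesser known role, fell. The ADH5 levels in YPGly were −1.91, −2.37, −2.48 and −2.29 in SEF1-VP16, −2.15, −2.14, −2.25 and −2.14 in sef1 and −1.85, −2.0, −1.79 and −2.46 in WT. In YPD they were 0.70, 0.77, 0.80 and 0.67 in SEF1-VP16, 0.81, 0.77, 0.84 and 0.74 in sef1 and 0.83, 0.82, 0.86 and 0.92 in WT, and the difference was −3.0 ± 0.11 in SEF1-VP16, −2.96 ± 0.05 in sef1 and −2.88 ± 0.13 in WT (adjusted p = 1.75e-09, 2.69e-12 and 1.69e-08), 7.38-fold lower in YPGly in WT.

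**Figure D3:**
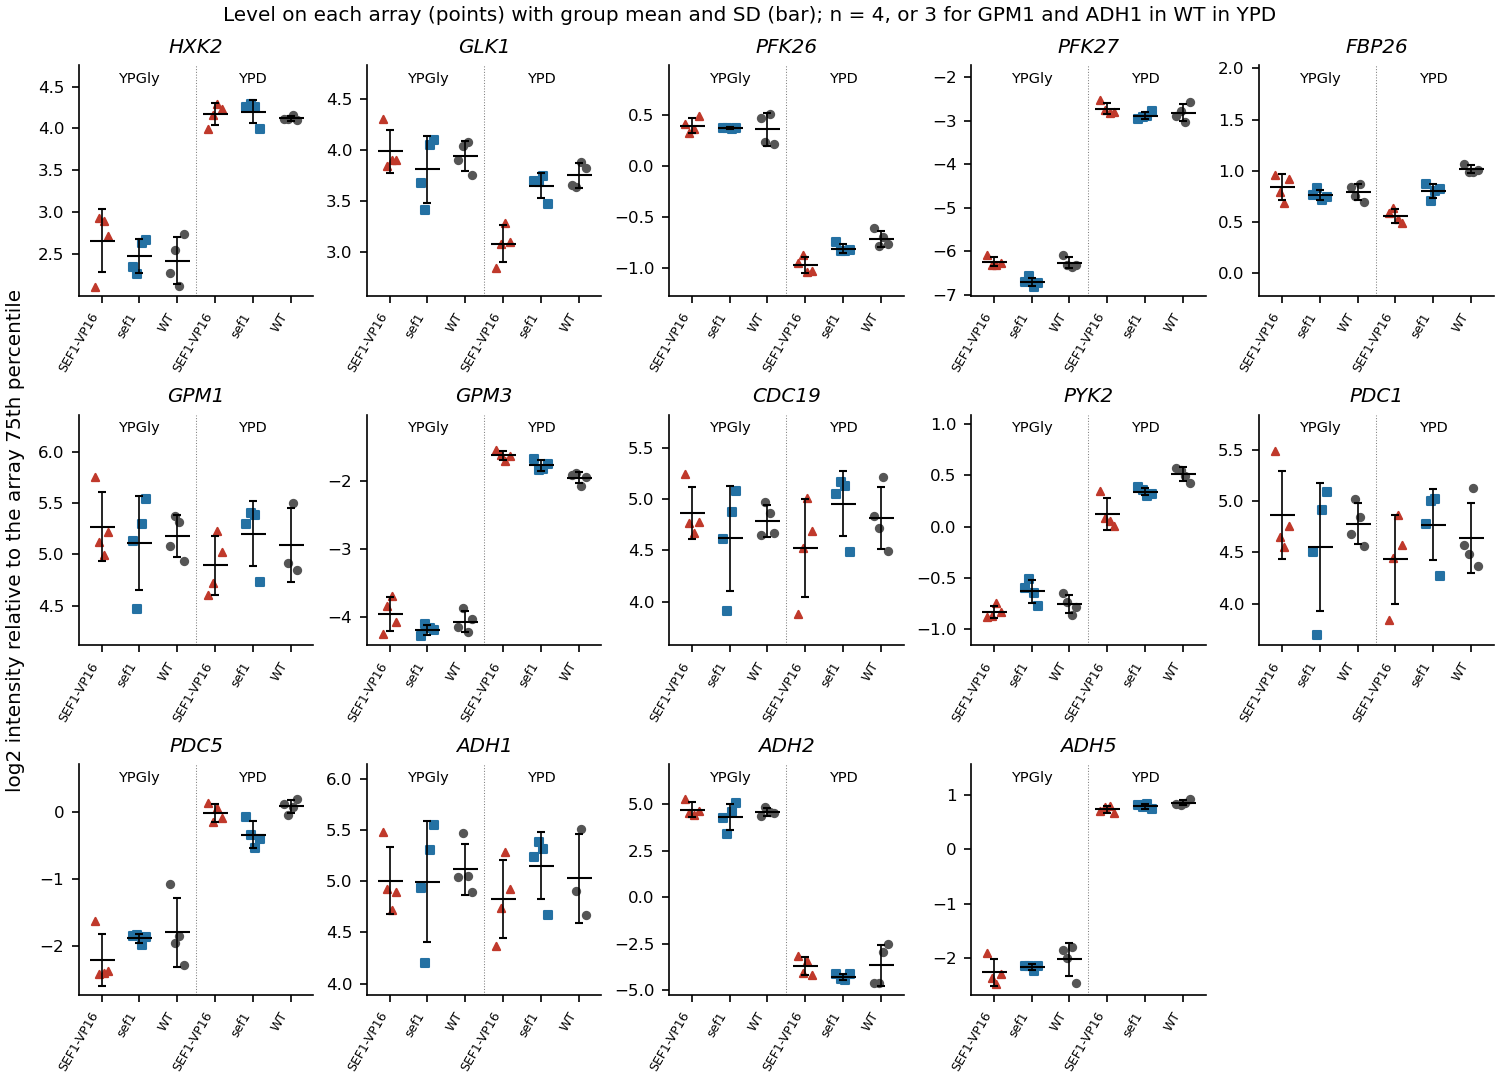
Level of 14 genes on each array (y axis, log2 intensity relative to the 75th percentile of the array) in the 3 strains in YPGly (left of each panel) and YPD (right), with group means and SD. The media separate fully for HXK2, PFK26, PFK27, GPM3, PYK2, PDC5, ADH2 and ADH5, whereas GPM1, CDC19, PDC1 and ADH1 overlap.

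The 17 pairs of isoenzymes or opposing enzymes were then compared within arrays, as the log2 ratio of the 2 probes on the same array, in which the scale of the array cancels. Ratios are given only as differences, since brightness of different probes is not comparable. In YPGly against YPD, 15 of 17 ratios differed by a two-sided exact permutation test within strains (adjusted p over 68 tests below 0.05), 6 higher and 9 lower, and 11 of them by at least 1.5-fold. The largest shift was that of ADH2 against ADH1, 8.27 on average over the strains and 8.23, 8.74 and 7.82 in SEF1-VP16, sef1 and WT. On the 4 arrays of WT in YPGly the centred ratio was 3.94, 3.99, 4.18 and 4.27, against −4.84, −3.79 and −2.55 on 3 arrays in YPD. The kinase ratio of PFK27 to PFK26 turned the other way, by −4.80 (−4.88, −5.0 and −4.52 by strain). With normexp it was −3.96. Its centred values in WT were −2.17, −2.16, −2.49 and −2.16 in YPGly, against 2.08, 2.39, 2.04 and 2.57 in YPD. GLK1 gained on HXK2 by 2.06 (2.41, 1.87 and 1.89 by strain). Against their main isoenzymes, the ratios of ADH5 to ADH1 and of GPM3 to GPM1 differed by −2.99 and −2.40, and those of PDC5 to PDC1 and of PYK2 to CDC19 by −1.99 and −1.06. PDC6 gained on PDC1 by 1.05 and GPM2 on GPM1 by 0.96. The adjusted p of these ratios lay between 4.96e-05 and 1.65e-04, the lower value being the smallest that the permutations can give.

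Smaller shifts appeared among closer pairs. ENO1 gained on ENO2 by 0.45 (adjusted p = 1.44e-04, exact permutation test) and HXK1 on HXK2 by 0.74 (adjusted p = 3.96e-04, same test). The ratios of TDH2 and TDH1 to TDH3 differed by −0.48 and −0.22, that of the phosphatase FBP26 to the kinase PFK26 by −1.19, and that of ADH3 to ADH1 by −0.45, all past the test. ADH3 to ADH1 overlapped between the media in every strain (−0.57, −0.23 and −0.55 in SEF1-VP16, sef1 and WT). TDH1 to TDH3 overlapped in sef1 (−0.06), and ENO1 to ENO2 and HXK1 to HXK2 did so in WT. The ratio of PFK2 to PFK1, the subunits of one enzyme, differed by −0.03 (adjusted p = 0.752, exact permutation test) and that of ADH4 to ADH1 by −0.36 (adjusted p = 0.209), neither past the threshold. With normexp PFK2 to PFK1 passed (−0.11, adjusted p = 0.0282, exact permutation test), as did ADH4 to ADH1 with quantile normalization (−0.28, adjusted p = 0.0117, same exact test). Without sef1 in YPGly replicate 2, ADH4 to ADH1 passed too (−0.47, adjusted p = 0.0449, exact permutation test). Probes of near copies such as TDH2 and TDH3, ENO1 and ENO2 or ADH1 and ADH2 may read some of each other's transcript, which was not tested, so shifts within these pairs are uncertain. A ratio with a step enzyme as one partner also keeps the deviation of those enzymes described above.

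**Figure D4:**
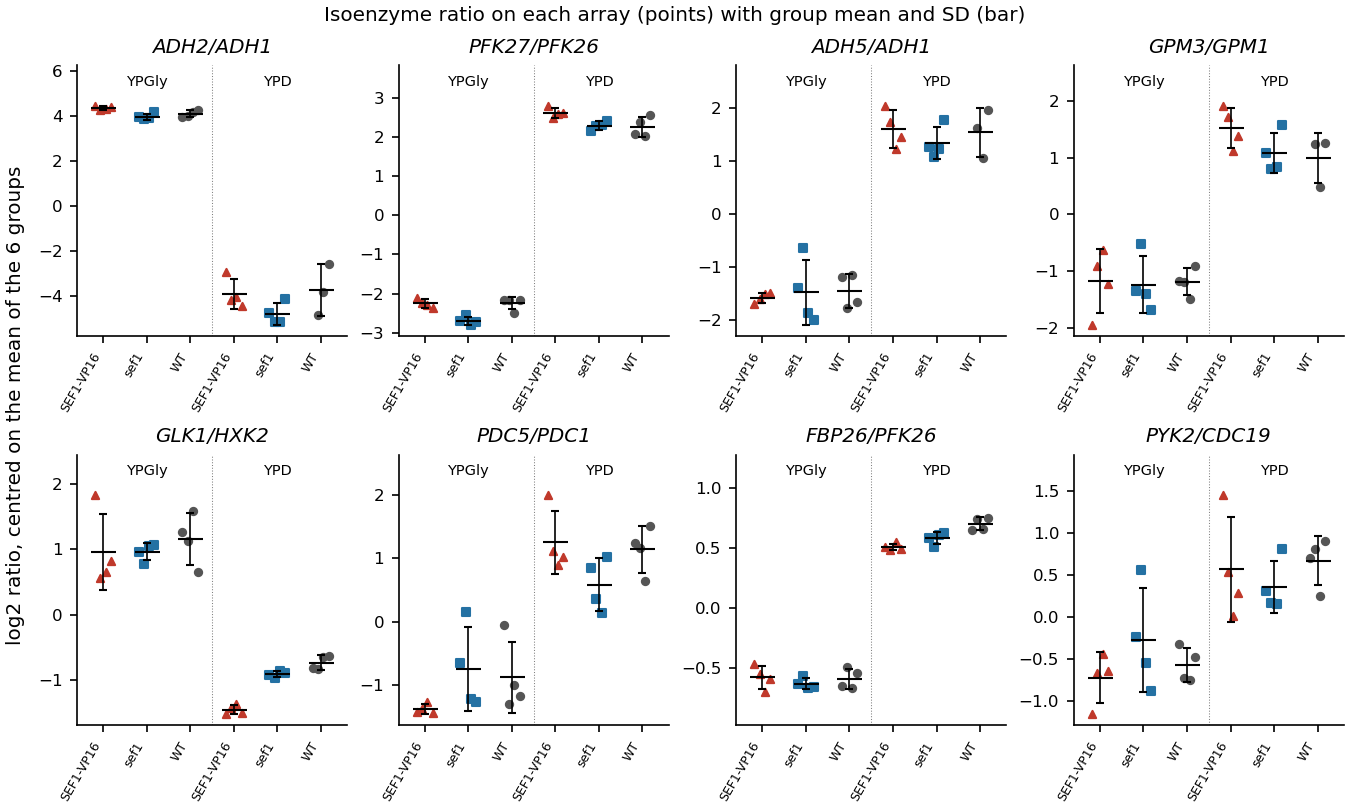
Log2 ratio of 2 probes on the same array (y axis, centred on the mean of the 6 groups of that pair) for the 8 pairs with the largest medium shift, by strain in YPGly (left) and YPD (right), with group means and SD (n = 4, or 3 in WT in YPD for the pairs with GPM1 or ADH1). The ratio of ADH2 to ADH1 lies near 4 in YPGly and between about −5 and −2 in YPD, and PFK27 to PFK26 shows the opposite order.

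Neighbouring genes of the pathway, listed by function, gave the setting. Of 8 respiration genes, 8 were called higher in YPGly in each strain (median 1.03 in WT, where that of all probes was 0.01), among them SDH2, a succinate dehydrogenase subunit (1.49 ± 0.09), and the cytochrome oxidase subunits COX4 (1.43 ± 0.11) and COX6 (1.17 ± 0.09). Among 8 genes of gluconeogenesis and pyruvate carboxylation the counts were 7 higher and 1 lower in SEF1-VP16, 7 higher and 0 lower in sef1 and 7 higher and 1 lower in WT (median 3.32 in WT). PCK1, which makes phosphoenolpyruvate, FBP1, which reverses the phosphofructokinase step, and MLS1, the malate synthase, rose by 6.55 ± 0.14, 6.48 ± 0.13 and 6.45 ± 0.12 in WT. The 6 genes of the glycerol branch split, with 2 higher and 2 lower in each strain (median −0.08 in WT). GUT2 and GUT1, which take glycerol into glycolysis, rose by 3.35 ± 0.09 and 2.95 ± 0.09 in WT, and GPP1, which forms glycerol, fell (−1.88 ± 0.07). The 6 genes leading to acetate and lactate had 5 higher and 0 lower in each strain (median 1.44 in WT), with the acetyl-CoA synthetase ACS1 at 5.81 ± 0.18, the lactate dehydrogenase CYB2 at 2.96 ± 0.09 and DLD1, which oxidises D-lactate, at 1.54 ± 0.09 in WT. The 7 other alcohol dehydrogenases and decarboxylases had 3 higher and 1 lower in SEF1-VP16, 2 higher and 1 lower in sef1 and 2 higher and 1 lower in WT (median 0.11 in WT), led by ARO10, a decarboxylase of amino acid breakdown (4.24 ± 0.09 in WT). Among 4 paralogues outside the pathway the counts were 1 higher and 2 lower in SEF1-VP16, 0 higher and 2 lower in sef1 and 0 higher and 2 lower in WT (median −0.53 in WT), and EMI2, a paralogue of GLK1, fell in WT (−2.37 ± 0.07).

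Among 10 regulators of glycolytic and glucose-repressed genes, the counts in YPGly were 3 higher and 1 lower in SEF1-VP16, 5 higher and 1 lower in sef1 and 6 higher and 1 lower in WT (median 0.69 in WT). TYE7, an activator of glycolytic genes, differed by 0.15 ± 0.08 in SEF1-VP16, 1.10 ± 0.07 in sef1 and 1.94 ± 0.08 in WT, past the test in sef1 and WT. ADR1, an activator of ADH2, differed by 2.17 ± 0.11 in SEF1-VP16, 1.91 ± 0.08 in sef1 and 1.53 ± 0.11 in WT, past the test in all 3. RAP1, a general factor at glycolytic promoters, was called higher in sef1 (1.26 ± 0.08) and WT (1.20 ± 0.08).

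Between strains, 1 of the 31 genes was called over the 6 comparisons, GLK1. In SEF1-VP16 against WT in YPD, GLK1 was lower, where 5.65% of all probes were called higher and 3.49% lower (319 and 197 probes, and 228 and 284 with the array median as scale). GLK1 stood at 2.85, 3.08, 3.29 and 3.10 in SEF1-VP16, against 3.66, 3.64, 3.88 and 3.83 in WT, a difference of −0.67 ± 0.10 (adjusted p = 4.22e-04) with no overlap. With the slide as a term the strain difference of GLK1 was 0.08 (adjusted p = 0.838), a value that adds sef1 against WT in YPD to SEF1-VP16 against sef1 in YPGly. Without the fold limit 9 of the 31 genes passed the adjusted p, where 48.1% of all probes did. Lower were GLK1, GPM2 (−0.55 ± 0.06), FBP26 (−0.45 ± 0.05), PYK2 (−0.39 ± 0.08), ENO1 (−0.29 ± 0.09), PFK26 (−0.26 ± 0.06) and PDC6 (−0.23 ± 0.06). Higher were GPM3 (0.33 ± 0.06) and PDC2 (0.21 ± 0.05). GPM2 also passed the fold limit without WT in YPD replicate 2 (−0.59), and HXK1 without SEF1-VP16 in YPD replicate 3 (−0.60), which each raised the count to 2. The 31 genes held 2 whose SEF1-VP16 arrays all lay above WT and 7 whose arrays all lay below, beside 24.9% and 20.2% of all probes. The median over the 31 genes was −0.17, against 0.03 over all probes, and −0.07 with quantile normalization. In YPGly none of the 31 was called for SEF1-VP16 against WT, beside 0.904% of probes higher and 0.195% lower, and none passed an unadjusted p below 0.05 in limma, where 16.3% of all probes did, or was called by the methods' t-test. All 31 overlapped there, as against 4.5% of all probes that lay wholly above and 6.18% wholly below. For GLK1 the estimate was 0.05 with a 95% interval of −0.21 to 0.30, and for ADH2 0.14 with −0.26 to 0.53.

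**Figure D5:**
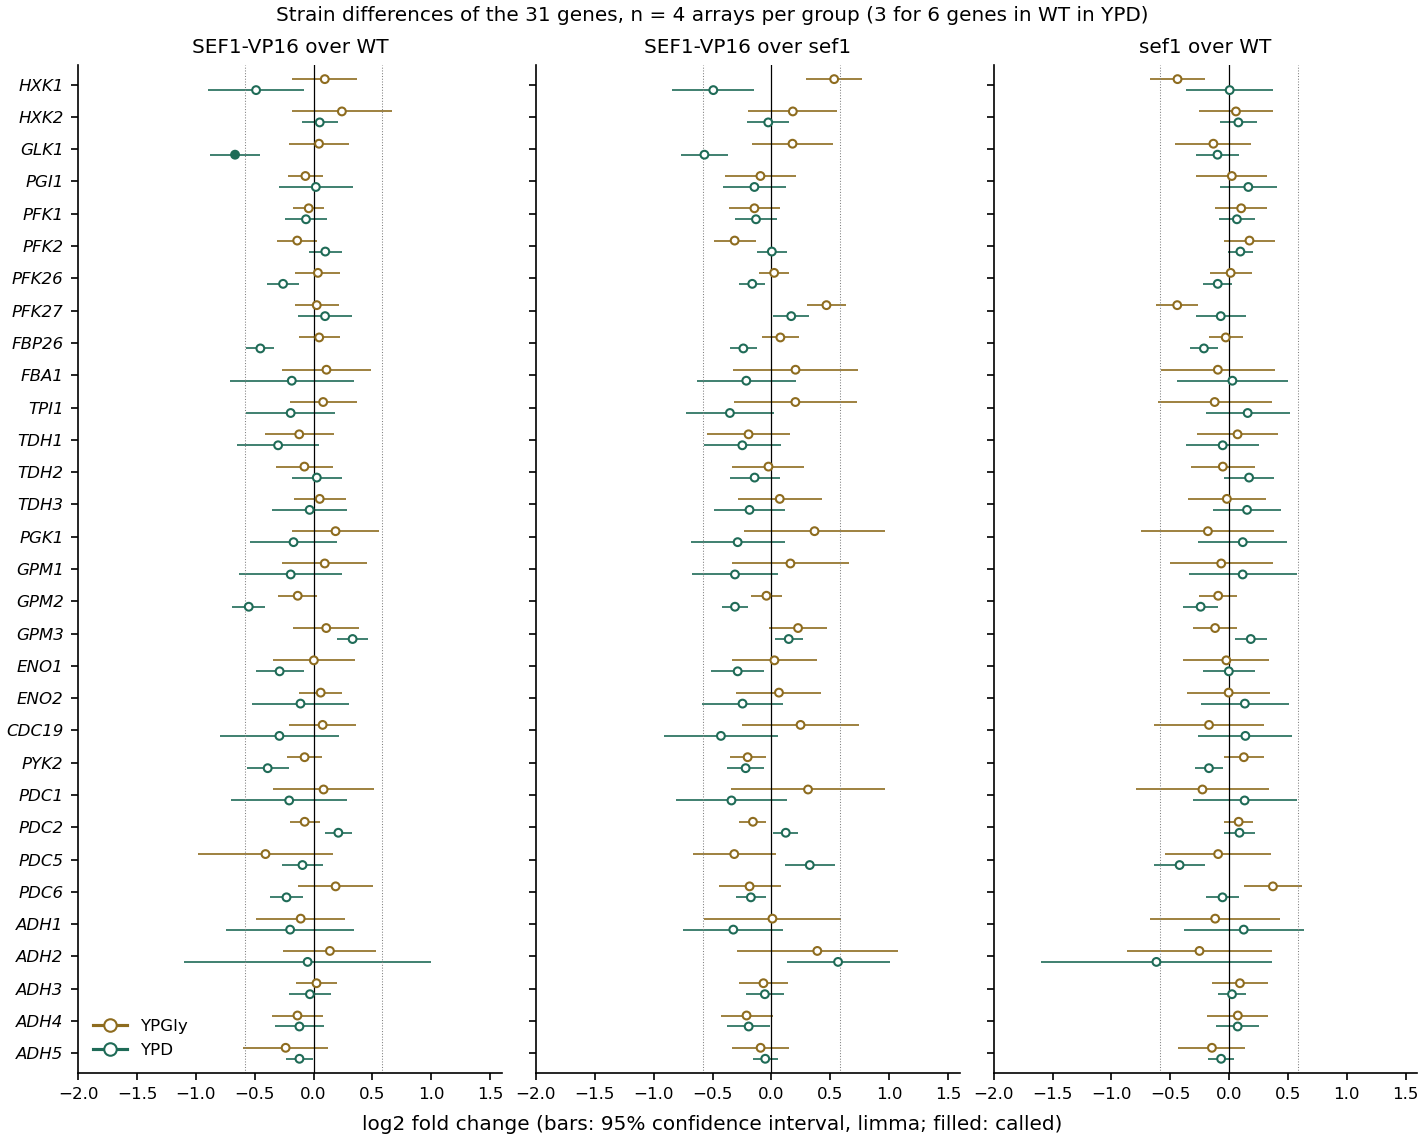
Log2 fold change (x axis) of the 31 genes (y axis) for SEF1-VP16 over WT, SEF1-VP16 over sef1 and sef1 over WT in YPGly and YPD, with 95% confidence intervals from limma and dotted lines at 1.5-fold. GLK1 in SEF1-VP16 over WT in YPD is the point filled as called, at −0.67.

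For SEF1-VP16 against sef1 in YPD no gene met both criteria (limma), beside 1.58% of probes called higher and 1.58% lower (89 and 89, but 69 and 133 with the array median as scale and 70 and 107 with normexp). The methods' t-test also called none. At any fold, 11 of the 31 genes passed the adjusted p and 14 an unadjusted p below 0.05, beside 44.1% and 51.3% of all probes. The largest values were −0.57 ± 0.09 for GLK1 (adjusted p = 5.86e-04), 0.57 ± 0.20 for ADH2 (adjusted p = 0.0386) and −0.49 ± 0.16 for HXK1 (adjusted p = 0.0265). CDC19 (−0.43 ± 0.22), TPI1 (−0.35 ± 0.17) and PDC1 (−0.34 ± 0.21) came next in size but did not pass the adjusted p, which PDC5 (0.33 ± 0.10) and GPM2 (−0.31 ± 0.05) did. Calls appeared when arrays were left out. Without sef1 replicate 4, ADH2 (0.62), GLK1 (−0.63) and HXK1 (−0.62) were called, and without SEF1-VP16 replicate 3, GLK1 (−0.64), HXK1 (−0.61) and CDC19 (−0.59). ADH2 was also called without SEF1-VP16 replicate 2 (0.69) or 4 (0.71). The median of the 31 genes was −0.19, against 0.00 over all probes, and 0.01 with quantile normalization, a change of sign.

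The same strains in YPGly were on one slide. None of the 31 was called in limma, beside 1.97% of the array called higher and 1.12% lower (111 and 63, and 129 and 39 with the array median as scale). The methods' t-test called none. At any fold, 3 genes passed the adjusted p and 5 an unadjusted p below 0.05, beside 22.7% and 37.9% of all probes. HXK1 stood at 4.38, 3.93, 3.97 and 4.0 in SEF1-VP16, against 3.42, 3.42, 3.64 and 3.67 in sef1, a difference of 0.53 ± 0.11 (adjusted p = 0.00704). PFK27 was at −6.08, −6.32, −6.31 and −6.26 in SEF1-VP16, against −6.71, −6.57, −6.82 and −6.74 in sef1 (0.47 ± 0.08, adjusted p = 0.00241). Both genes had no overlap between the strains. PFK2 was −0.31 ± 0.08 (adjusted p = 0.0208), again without overlap.

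In sef1 against WT none of the 31 genes was called in either medium, in limma or by the methods' t-test. In YPGly 0.408% of probes were called higher and 0.39% lower (23 and 22, and 17 and 28 with the array median as scale). At any fold, 2 of the 31 genes passed the adjusted p there and 3 an unadjusted p below 0.05, beside 4% and 21.3% of all probes. Those past the adjusted p were HXK1 (−0.44 ± 0.11, adjusted p = 0.0478) and PFK27 (−0.44 ± 0.08, adjusted p = 0.0186), which lay at −6.71, −6.57, −6.82 and −6.74 in sef1, against −6.08, −6.31, −6.36 and −6.33 in WT. In YPD, with these 2 strains side by side on a single slide, the share of probes called was 0.567% higher and 0.106% lower, and 2 genes passed the adjusted p and 5 an unadjusted p below 0.05 at any fold, beside 7.97% and 27.1% of all probes. PDC5 stood at −0.07, −0.34, −0.53 and −0.40 in sef1, against 0.13, −0.05, 0.08 and 0.19 in WT (−0.42 ± 0.10, adjusted p = 0.0334), and FBP26 differed by −0.21 ± 0.05 (adjusted p = 0.0415). ADH2 had the most negative estimate, −0.62 ± 0.44 (adjusted p = 0.397), with an interval of −1.60 to 0.36 and the WT arrays in a low and a high pair. The comparisons of a strain with WT and with sef1 share arrays and are not independent of each other.

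Within arrays, 1 of 17 isoenzyme ratios differed between SEF1-VP16 and WT, 3 between SEF1-VP16 and sef1 and none between sef1 and WT (two-sided exact permutation test within media, adjusted over the same 68 tests), where 1 of the 17 had an unadjusted p below 0.05. The ratio of TDH1 to TDH3 differed in SEF1-VP16 against WT by −0.22 (adjusted p = 0.00694, exact permutation test) and against sef1 by −0.16 (adjusted p = 0.0161, same exact test). Against WT it was −0.17 in YPGly, with overlap, and −0.27 in YPD, without overlap. Against sef1 it was −0.26 in YPGly, without overlap, and −0.06 in YPD, with overlap. PFK27 gained on PFK26 in SEF1-VP16 against sef1 by 0.39, 0.44 in YPGly and 0.33 in YPD (adjusted p = 0.00185, exact permutation test), without overlap in either medium. With normexp the TDH1 to TDH3 ratio lost its call against sef1 (adjusted p = 0.0805, exact permutation test). ADH2 gained on ADH1 by 0.64 (adjusted p = 0.0123, exact permutation test), with overlap in YPD. With quantile normalization the ratio of GPM2 to GPM1 was lower in SEF1-VP16 against WT (−0.32) and sef1 (−0.15), and in sef1 against WT (−0.18), past the test. Without SEF1-VP16 in YPGly replicate 1, the dimmest array, the ratio of GLK1 to HXK2 passed too, lower against both WT (−0.60) and sef1 (−0.42), as did that of HXK1 to HXK2 against WT (−0.48). For sef1 against WT a ratio passed in 4 such cases, without WT in YPD replicate 2 (ADH2 to ADH1, −0.87), without WT in YPGly replicate 3 or sef1 in YPGly replicate 2 (FBP26 to PFK26, −0.09 and −0.09) and without WT in YPGly replicate 4 (HXK1 and GLK1 to HXK2, −0.39 and −0.27).

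An interaction is the strain difference in YPGly minus that in YPD, and asks if the strains responded unequally to glycerol. For SEF1-VP16 against WT 1 gene was called, GLK1 at 0.71 ± 0.16 (adjusted p = 0.00272), beside 3.86% of probes higher and 6.72% lower (218 and 379, but 378 and 223 with the array median as scale and 265 and 280 with quantile normalization). Without SEF1-VP16 in YPD replicate 3, HXK1 joined it (0.70). For SEF1-VP16 against sef1 3 genes were called, HXK1 at 1.03 ± 0.21 (adjusted p = 0.00133), GLK1 at 0.75 ± 0.20 (adjusted p = 0.00767) and PDC5 at −0.64 ± 0.20 (adjusted p = 0.021), beside 4.25% and 4.36% (240 and 246, but 361 and 157 with the array median as scale and 295 and 178 with normexp). PDC5 lost its call without SEF1-VP16 in YPGly replicate 2, 3 or 4 (−0.57, −0.58 and −0.58) or without sef1 in YPD replicate 3 (−0.58), and also in a single fit of all 24 arrays (adjusted p = 0.0641, limma) and with the array median as scale (−0.54). With quantile normalization HXK1 (0.50) and GLK1 (0.40 against sef1 and 0.52 against WT) kept their sign and adjusted p but not the 1.5-fold size. For sef1 against WT none was called in limma and 6 passed an unadjusted p below 0.05, as did 16.3% of all probes, of which the share called was 0.39% higher and 0.496% lower (22 and 28, but 35 and 22 with quantile normalization and 14 and 31 with normexp). Each interaction sets arrays of different slides against each other, and what medium and slide contribute cannot be told apart.

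Among the neighbouring genes, some regulators differed between strains in YPD. TYE7 was higher in SEF1-VP16 against WT by 1.57 ± 0.09 (adjusted p = 4.30e-06, limma) and against sef1 by 0.86 ± 0.08, and higher in sef1 against WT by 0.71 ± 0.07. SEF1-VP16 lay on another slide than WT in both media and than sef1 in YPD. In these comparisons strain and slide cannot be told apart. Against sef1 in YPGly, on one slide, TYE7 differed by −0.10 ± 0.07 and was not called. HAP4, an activator of respiration genes, was higher in SEF1-VP16 against WT by 1.62 ± 0.06 in YPD and 1.26 ± 0.07 in YPGly. Against sef1, HAP4 was called higher in YPD (1.02 ± 0.07) and also in YPGly, on one slide (0.72 ± 0.06). In sef1 against WT HAP4 was also called higher in YPD (0.61 ± 0.07). In YPGly it passed the adjusted p there, short of 1.5-fold (0.54 ± 0.06). CAT8, an activator of gluconeogenic genes, was lower in SEF1-VP16 against WT in YPD (−1.24 ± 0.07). Against sef1, CAT8 differed by −0.81 ± 0.06 in YPD and by −0.04 ± 0.08 in YPGly, where it was not called. Of the 10 regulators 2 higher and 1 lower were thus called for SEF1-VP16 over WT in YPD, with 1 higher and 0 lower in YPGly. In the same comparison in YPD the other lists had 2 higher and 1 lower of 8 for gluconeogenesis, 0 higher and 2 lower of 6 for the glycerol branch, 0 higher and 2 lower of 6 for acetate and lactate, 0 higher and 2 lower of 7 for other dehydrogenases and decarboxylases, 0 higher and 1 lower of 4 for paralogues and 0 higher and 0 lower of 8 for respiration. Outside the regulators, CYB2 had the lowest value (−1.09 ± 0.06) and MLS1 the highest (1.14 ± 0.14). The 8 respiration genes had a median of −0.38 with no call, where that of all probes was 0.03. For SEF1-VP16 against WT in YPGly, 1 gene of gluconeogenesis was called higher, and none of the genes of the remaining lists was called.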

How the data were processed

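RNA of 24 cultures was labelled with an Alexa dye through oligo-dT cDNA and hybridised to one-colour Agilent yeast arrays. Per the file headers, Agilent Feature Extraction 10.5.1.1 gave the deposited intensity values, background-subtracted and detrended within each array. The authors' deposited log2 table, made in GeneSpring with the 75th percentile of each array as scale, served as an alternative, and each of its 24 columns lay nearest to its own array.

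Outlier spots (164 in all, of which WT in YPD replicate 1 held 79) were left out, the 2 spots of a probe averaged, and log2 intensities taken relative to the 75th percentile of the array. Probes with a mean intensity of at least 200 in at least 1 group of all 6 were tested (5644 of 6256), with limma 3.58.1 in R 4.3.3 on the groups compared and Benjamini-Hochberg adjustment over all of them. Interactions used the 4 groups involved. Genes were matched by locus name to RefSeq symbols, and no coordinates were used. The files read here held no probe sequences. Ratios of 2 probes were tested by a two-sided exact permutation test of arrays within strains or media, adjusted over 68 tests, in Python 3.11.15. The tests were checked on simulated data.

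The alternatives were normexp background correction (offset 50, on median spot and background intensities, as mean intensities were not used here), quantile normalization, the array median, no filter on dim probes, no fold minimum or a 2-fold one, all 24 arrays in a single fit, the methods' t-test, the slide as a term, a replicate block, leaving out each array, the deposited log2 table and, added after seeing the data, keeping marked spots. The 31 genes, the pathway lists and the tests were chosen with earlier results of these data known. All 31 are named. Values on each array were to be given for genes called between strains and for both partners of the 8 pairs with the largest ratio shift between media, and HXK1 was added after its values were seen. Outside the 31, at most 3 called genes per list with the largest change are named. TYE7, ADR1 and RAP1 were so chosen in WT, and their values in the other strains are given beside. The numbers of arrays and their brightness set the precision, and the 4 cultures per group were described as biological repeats.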

Additional observations from a re-analysis of the deposited data

Results flagged for a closer look

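In 17 of the 180 groups of 4 levels tested, 1 array stood apart from the other 3 by Dixon's criterion (gap to the nearest array over the range of the group), where about 1 group in 20, or 9.0 groups, is expected by chance. The genes share arrays, so the 180 groups are not independent. Of these, 5 were on SEF1-VP16 in YPGly replicate 1, the array with the lowest 75th percentile. It was high for HXK1 (4.38, against 3.93 to 4.0 on the other 3), GLK1 (4.30, against 3.85 to 3.91), FBA1 (5.90, against 5.14 to 5.26), PGK1 (5.49, against 4.79 to 4.87) and PDC5 (−1.61, against −2.41 to −2.37).

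The array of sef1 in YPD replicate 4, with the highest 75th percentile of all (16182), was low for HXK1 (4.55, against 5.01 to 5.10), HXK2 (3.99, against 4.25 to 4.30), TPI1 (4.74, against 5.28 to 5.36), GPM1 (4.73, against 5.29 to 5.40) and ENO1 (4.01, against 4.37 to 4.40). WT in YPD replicate 3, with the lowest percentile of its group (8927), was high for TPI1 (5.40, against 4.88 to 4.92), PGK1 (5.06, against 4.57 to 4.63) and ADH3 (3.29, against 3.16 to 3.16). The other 4 were single cases. PFK26 read −0.74 on sef1 in YPD replicate 1 (others −0.83 to −0.83). TDH1 read 4.15 on WT in YPGly replicate 4 (others 4.54 to 4.60). PDC2 read −1.89 on WT in YPD replicate 2 (others −1.77 to −1.76). ADH5 read −2.25 on sef1 in YPGly replicate 3 (others −2.15 to −2.14).

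In 4 cases a strain difference itself differed between the media in limma. GLK1 did so for SEF1-VP16 against WT (0.71). HXK1 (1.03), GLK1 (0.75) and PDC5 (−0.64) did so where the comparison was with sef1. The media lay on different slides in each case, and their effects cannot be told apart.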

How the results depend on the processing

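Of 59 results for single genes and ratios, 1306 of 1343 values under alternatives kept their direction and call, 34 lost the call and 3 turned their sign, all with the slide as a term. These were GLK1 for SEF1-VP16 against WT in YPD (0.0807) and HXK1 for the medium in sef1 and in WT (0.0746 in both). Of 350 counts of genes or ratios under alternatives, 316 stayed within 1.5-fold. Without a fold minimum 2 genes were called for sef1 against WT in YPD and 2 in YPGly, 9 for SEF1-VP16 against WT in YPD, 11 and 3 for SEF1-VP16 against sef1 in YPD and YPGly, 20 for the medium in SEF1-VP16, and 6 and 9 for the interactions of SEF1-VP16 with WT and with sef1. Of all probes tested, 79.4% passed in this way for the medium in SEF1-VP16, and 31.9% and 37.4% for those interactions. For SEF1-VP16 against WT in YPD the count was 2 with normexp (GPM2 joining), 2 with the array median as scale, 0 with a 2-fold minimum and 0 with the slide as a term. For SEF1-VP16 against sef1 in YPD it was 1 with the array median. The interaction with WT had 0 genes with quantile normalization, 3 with the array median and 0 with a 2-fold minimum, and that with sef1 had 1 with quantile normalization and 1 with a 2-fold minimum. Apart from the fold minimum, the cause was not tested.

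Leaving out single arrays gave 0 to 0 calls for sef1 against WT in either medium, for SEF1-VP16 against WT and against sef1 in YPGly and for the interaction of sef1 with WT. It gave 1 to 2 for SEF1-VP16 against WT in YPD, 0 to 3 against sef1 in YPD, 11 to 11, 12 to 13 and 12 to 12 for the medium in SEF1-VP16, sef1 and WT, and 1 to 2 and 2 to 3 for the interactions of SEF1-VP16 with WT and sef1. The highest count for SEF1-VP16 against WT came without WT in YPD replicate 2 or SEF1-VP16 in YPD replicate 3, and against sef1 without sef1 in YPD replicate 4 or SEF1-VP16 in YPD replicate 3. For ratios the ranges were 15 to 16 for the medium, 0 to 2 for sef1 against WT, 1 to 3 for SEF1-VP16 against WT and 3 to 4 against sef1. With quantile normalization 1 ratio passed for sef1 against WT and 2 for SEF1-VP16 against WT, GPM2 to GPM1 joining in both.

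Over all probes tested, counts of calls moved over 1.5-fold with the fold minimum (450, 226, 2717, 103, 2488 and 1282 probes without one and 6, 9, 114, 31, 33 and 52 with 2-fold, for sef1 against WT, SEF1-VP16 against WT and SEF1-VP16 against sef1, each in YPD and then YPGly, where 1.5-fold gave 38, 45, 516, 62, 178 and 174). The methods' t-test called 20, 17 and 33 probes for sef1 against WT in YPD and YPGly and SEF1-VP16 against WT in YPGly, and the slide as a term gave 173 for SEF1-VP16 against WT. Single arrays moved sef1 against WT to between 19 and 53 calls in YPD and between 28 and 77 in YPGly.

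Replicate numbers were tested as a block. Deviations of arrays with the same number correlated from −0.44 to 0.53 over 36 pairs of arrays, 15 above 0.1. In 30 of 120 tests of an array against another group, its own number correlated best, so the numbers were not taken to pair arrays. The block left the gene counts within 1.5-fold, and with it 0 ratios passed for SEF1-VP16 against WT and 1 against sef1, TDH1 to TDH3 losing the call in both (adjusted p = 0.0664 and 0.101, exact permutation test) and ADH2 to ADH1 against sef1 (0.0839). Between media ADH3 to ADH1 lost it (−0.44, adjusted p = 0.082, exact permutation test). No methods' t-test was run for the interactions. The 3.04-fold range of array brightness, the confounding of medium and slide and the number of arrays, 4 in each group, limit the precision.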
